A study of Mus musculus with 12 samples.

Results

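The 8 genes described here, Hspa5, Hsp90b1, Calr, Pdia4, Sdf2l1, Dnajb9, Xbp1 and Herpud1, belong to the unfolded protein response of the endoplasmic reticulum (ER). They were taken by symbol from the raw count tables of mouse bone marrow-derived macrophages, where all 8 stood among the 54582 symbols common to both tables. The study asked about the motor protein KIF13B in the uptake of dying cells by macrophages, and compared macrophages with and without Kif13b, in the presence and absence of apoptotic cells. Each of 4 groups had 3 polyA RNA libraries, 12 in all, made from tibial marrow of mice labelled with a time of 6 to 8 weeks. KO+AC stands for Kif13b-deficient and WT+AC for wild-type macrophages given apoptotic Jurkat cells, a line derived from a human T cell leukaemia, for 90 min at 5 Jurkat cells to 1 macrophage. KO and WT stand for the macrophages of the 2 genotypes without Jurkat cells.

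The labels write the altered genotype as Kif13b-/- in one place and as a knock down in another, and KO is used for the libraries so labelled. The labels give serum as 12, 13 and 14% for the KO libraries and 10, 10 and 11% for the WT libraries. These percentages climb by 1 from library to library, so they are doubtful. Nothing in the labels says that each of the 3 libraries had its own animal or culture, so a p-value sets a difference against library-to-library spread only, which may be technical.

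The unfolded protein response matches the folding capacity of the ER to its load of new secretory and membrane proteins. Unfolded protein frees the membrane sensors IRE1 (gene Ern1), PERK (Eif2ak3) and ATF6 from the chaperone BiP. IRE1 then splices Xbp1 mRNA into the form that codes for the active transcription factor, ATF6 is cut by the Golgi proteases encoded by Mbtps1 and Mbtps2, PERK phosphorylates eIF2alpha, and the factors so made raise chaperone and degradation genes. Macrophages secrete much protein and take up and degrade dead cells, and the pathway has been studied in them for its ties to cytokine and lipid handling. Of the 8 genes, Hspa5 encodes BiP, Hsp90b1 the ER member of the HSP90 family (GRP94), Calr the lectin chaperone calreticulin and Pdia4 a disulfide isomerase. Sdf2l1 and Dnajb9 (ERdj4) encode co-chaperones of BiP, Xbp1 the transcription factor named above, and Herpud1 a membrane protein of ER-associated degradation. Gene counts do not separate spliced from unspliced Xbp1 mRNA.

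The promoters of the 8 genes are shown first because the response acts through short elements near the start site. In GENCODE vM21 (mm10), Hspa5 lies at chr2:34771970-34777547 (+ strand), Hsp90b1 at chr10:86690209-86705509 (- strand), Calr at chr8:84841850-84846934 (- strand), Pdia4 at chr6:47796141-47813430 (- strand), Sdf2l1 at chr16:17130138-17132383 (- strand), Dnajb9 at chr12:44205559-44210326 (- strand), Xbp1 at chr11:5520659-5525893 (+ strand) and Herpud1 at chr8:94386438-94395377 (+ strand). All 8 were matched in RefSeq's table of promoters (build GRCm38.p6, 250 bases before to 50 after the start), and the search covered both strands of that window. The ER stress response element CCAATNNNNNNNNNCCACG, known as a site of ATF6 together with NF-Y, was present in Hspa5, Hsp90b1 and Calr, against 39 of 32851 promoters (0.119%). Its second form, ATTGG and CCACG separated by 1 base, was present in Herpud1, against 12 promoters (0.0365%) in all. The 4 other promoters held neither form within the window, and none of the 8 held the core TGACGTGG of a further element, present in 0.676% of promoters. The short site CCACG alone, which ends both forms, was present in 7 of the 8, all but Xbp1, and in 32.8% of all promoters. The 250 bases before the start are printed for the 4 promoters with a match and for that of Sdf2l1, the gene with the largest difference below, with the matched element in capitals.
Hspa5 (chr2:34771840-34772089, + strand): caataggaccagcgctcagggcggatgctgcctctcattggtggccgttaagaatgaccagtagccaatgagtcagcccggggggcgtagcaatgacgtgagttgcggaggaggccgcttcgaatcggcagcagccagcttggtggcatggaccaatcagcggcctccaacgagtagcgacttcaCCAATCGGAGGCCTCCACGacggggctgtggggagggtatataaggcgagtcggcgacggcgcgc
Hsp90b1 (chr10:86705445-86705694, - strand): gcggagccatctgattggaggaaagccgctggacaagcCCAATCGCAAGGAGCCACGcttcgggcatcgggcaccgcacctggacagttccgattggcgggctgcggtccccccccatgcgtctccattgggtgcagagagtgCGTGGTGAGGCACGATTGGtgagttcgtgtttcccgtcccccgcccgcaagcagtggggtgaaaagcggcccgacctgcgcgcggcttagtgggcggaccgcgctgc
Calr (chr8:84846932-84847181, - strand): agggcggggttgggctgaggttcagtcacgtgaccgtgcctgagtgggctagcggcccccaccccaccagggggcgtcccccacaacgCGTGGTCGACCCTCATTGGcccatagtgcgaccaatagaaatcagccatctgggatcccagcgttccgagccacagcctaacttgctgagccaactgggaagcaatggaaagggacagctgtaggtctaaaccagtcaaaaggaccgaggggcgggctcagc
Herpud1 (chr8:94386179-94386428, + strand): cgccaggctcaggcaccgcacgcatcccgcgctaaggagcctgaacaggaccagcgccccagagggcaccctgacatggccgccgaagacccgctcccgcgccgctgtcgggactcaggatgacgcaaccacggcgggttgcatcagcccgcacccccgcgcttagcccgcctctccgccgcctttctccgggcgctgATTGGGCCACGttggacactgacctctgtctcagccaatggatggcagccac
Sdf2l1 (chr16:17132384-17132633, - strand): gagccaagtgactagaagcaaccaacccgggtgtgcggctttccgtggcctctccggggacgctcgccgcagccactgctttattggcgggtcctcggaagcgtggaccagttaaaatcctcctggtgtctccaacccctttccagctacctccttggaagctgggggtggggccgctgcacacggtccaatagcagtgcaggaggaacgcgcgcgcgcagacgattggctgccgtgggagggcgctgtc
The match began 65 bases before the start in Hspa5 and 52 bases before it in Herpud1, both on the strand of the gene. Hsp90b1 had 2 matches, beginning 212 bases before the start on the strand of the gene and 107 bases before it on the other, and Calr had 1 on the other strand, 162 bases before the start. These matches describe letters in a window and are no measure of binding in these cells.

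Values below are counts scaled to a common library total (CPM), on 1 scale for all 12 libraries. Total counts ran from 17000976 to 17285594 per library with apoptotic cells and from 18256622 to 18770757 without them, and 31787 to 32801 symbols had counts with them against 18335 to 18540 without. The groups with and without apoptotic cells stand in separate deposited tables, so the treatment and the table cannot be told apart. Kif13b averaged 22.7 ± 3.41 CPM in KO and 34.2 ± 1.51 CPM in WT libraries (SD, n = 3), so that it was lower in KO (log2 fold change −0.59, edgeR adjusted p = 0.0087). Among libraries given Jurkat cells it went against the label, at 89.0 ± 0.562 CPM in the libraries labelled KO+AC and 80.1 ± 2.17 CPM in WT+AC libraries (log2 fold change 0.13, edgeR adjusted p = 0.0261), so each direction between these 2 groups rests on their labels. The common biological coefficient of variation was 0.0294 among libraries with and 0.117 among those without apoptotic cells. Macrophage markers were present throughout, all 10 with counts in each group, and their sum ran from 22012 to 22333 CPM in KO+AC, 18406 to 19194 in WT+AC, 46236 to 56488 in KO and 48857 to 49872 in WT libraries.

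With apoptotic cells, the 2 co-chaperones of BiP, the transcription factor Xbp1 and the isomerase Pdia4 were lower in both genotypes on every scale tried. With TMM scaling the folds ran from 1.87 for Pdia4 in WT to 6.76 for Sdf2l1 in KO, and with a length and GC offset they were smaller, as given below. The large chaperones differed less and not on every scale, Calr being 1.42-fold lower in KO and 1.37-fold in WT with TMM scaling but not with library totals or a length and GC offset, and Herpud1 was called in neither genotype with TMM scaling. In KO+AC against KO, 5 of the 8 genes were called lower and none higher, beside 36.7% of all 16810 genes called lower, 49.6% called higher and 86.3% called in all. In WT+AC against WT, 7 of the 8 were called lower and none higher, beside 36.7% of all genes called lower, 48.3% higher and 85.0% in all. Genes were called at an adjusted p under 0.05 in edgeR's quasi-likelihood test, adjusted over all genes tested. The median log2 fold change of the 8 genes was −0.81 in KO and −0.72 in WT, beside 0.32 and 0.25 over all genes. Among the libraries without apoptotic cells alone, 12640 genes passed the count filter, fewer than the 16810 here. Genes that pass only through the libraries with apoptotic cells could hardly be called lower. They lift the share called higher and the median over all genes. In these bulk libraries, fewer cells of a type and less RNA per cell cannot be told apart.

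**Figure D1:**
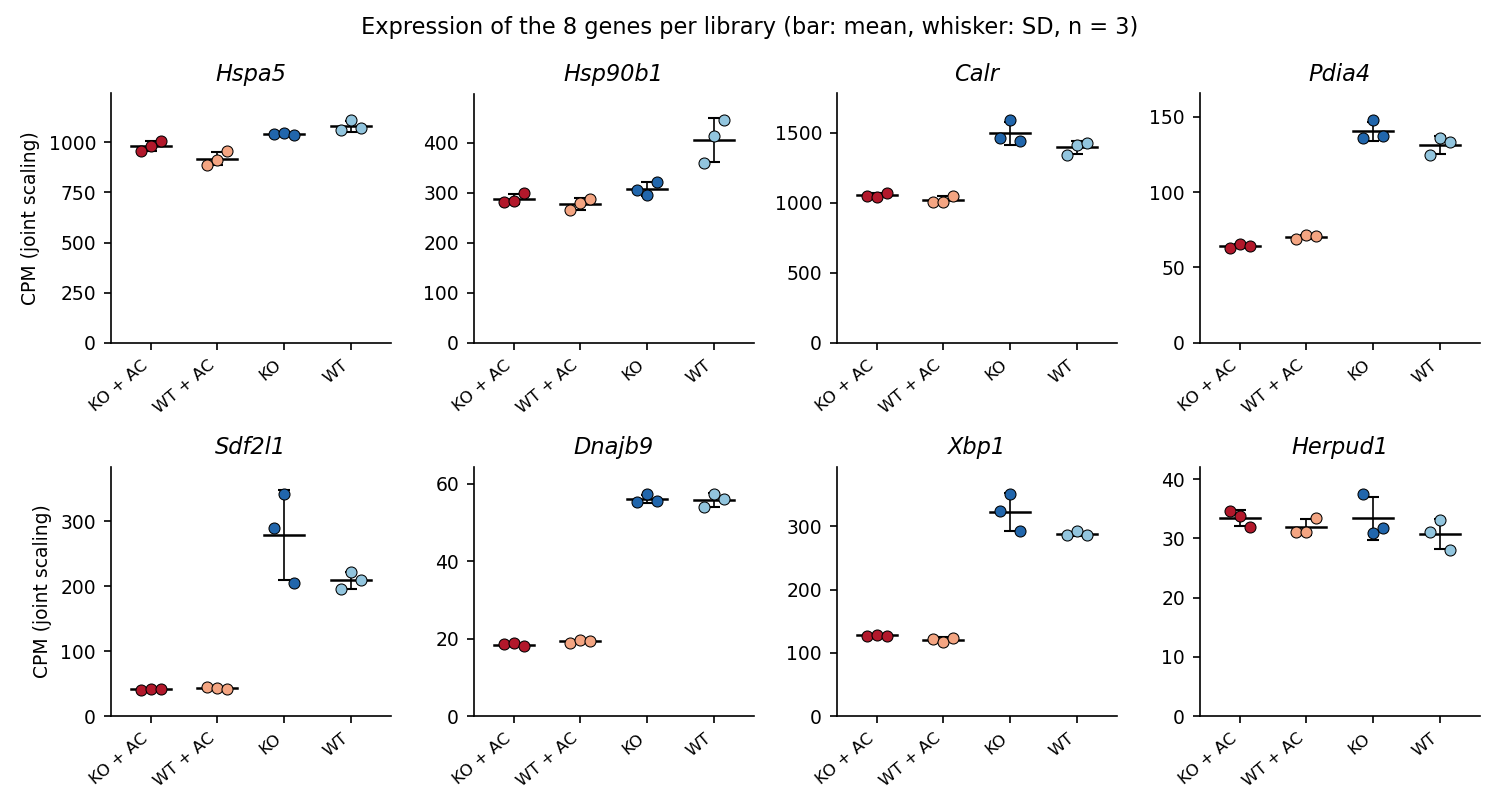
CPM of each of the 8 genes (vertical axis, from 0) in every library of the KO+AC, WT+AC, KO and WT groups; points are libraries, horizontal bars the means and whiskers the SD (n = 3). The points of Sdf2l1, Dnajb9, Xbp1 and Pdia4 lie far lower in both groups with apoptotic cells, while those of Herpud1 overlap across all 4 groups.

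Sdf2l1, which holds BiP's clients in a soluble state together with ERdj3 (Dnajb11), had 40.6, 41.1 and 42.0 CPM in KO+AC libraries, against 289, 342 and 205 CPM in KO libraries. In the other genotype it had 44.4, 43.8 and 42.4 CPM in WT+AC libraries, against 195, 221 and 210.1 CPM in WT libraries. Every library with apoptotic cells was far below every library without them, and KO libraries 1 and 2 stood above all the others. The log2 fold change was −2.76 (SE 0.13, edgeR adjusted p = 1.05e-16) in KO and −2.26 (SE 0.12, edgeR adjusted p = 5.79e-15) in WT. Of all genes tested, 2.14% in KO and 2.52% in WT had a lower fold change.

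Dnajb9, a J-domain protein of the ER lumen that also acts on IRE1, had 18.6, 18.8 and 18.1 CPM in KO+AC libraries, against 55.3, 57.3 and 55.5 CPM in KO libraries. It had 19.0, 19.8 and 19.3 CPM in WT+AC libraries, against 54.0, 57.5 and 56.2 CPM in WT libraries. The 2 conditions were wide apart and the libraries within each were close together. Log2 fold changes were −1.60 in KO (SE 0.09, edgeR adjusted p = 1.03e-15) and −1.53 in WT (SE 0.09, edgeR adjusted p = 3.06e-15).

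Xbp1 had 127, 129 and 126 CPM in KO+AC libraries, against 323, 351 and 292 CPM in KO libraries. It had 123, 117 and 123 CPM in WT+AC libraries, against 286, 292 and 286 CPM in WT libraries. Again no library with apoptotic cells reached the lowest library without them, and the spread was widest among the KO libraries. It fell in both genotypes, with a log2 fold change of −1.34 (SE 0.08, edgeR adjusted p = 1.75e-14) in KO and −1.25 (SE 0.08, edgeR adjusted p = 9.11e-14) in WT.

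Pdia4, which forms and reshuffles disulfide bonds, had 63.2, 65.8 and 64.3 CPM in KO+AC libraries, against 136, 148 and 137 CPM in KO libraries. It had 68.8, 71.5 and 70.6 CPM in WT+AC libraries, against 124, 136 and 133 CPM in WT libraries. Groups with and without apoptotic cells did not overlap, and the KO+AC libraries were the lowest of all. Its log2 fold change was −1.12 (SE 0.08, edgeR adjusted p = 4.44e-13) in KO and −0.90 (SE 0.08, edgeR adjusted p = 4.95e-11) in WT.

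Calr, the calcium-binding chaperone of glycoproteins, had 1051, 1045 and 1072 CPM in KO+AC libraries, against 1464, 1591 and 1439 CPM in KO libraries. It had 1008, 1007 and 1050.3 CPM in WT+AC libraries, against 1344, 1416 and 1428 CPM in WT libraries. The groups with apoptotic cells lay below those without them and did not overlap them. The difference on the log2 scale was −0.50 (SE 0.08, edgeR adjusted p = 1.74e-06) in KO and −0.45 (SE 0.08, edgeR adjusted p = 9.78e-06) in WT.

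Hspa5 had 955, 983 and 1009 CPM in KO+AC libraries, against 1042, 1048 and 1039 CPM in KO libraries. It had 889, 913 and 955 CPM in WT+AC libraries, against 1061, 1111 and 1070.3 CPM in WT libraries. All libraries with apoptotic cells were below those without them, by a margin that was small beside that of the co-chaperones. The log2 fold change of −0.23 in WT passed the test (SE 0.08, edgeR adjusted p = 0.00764), and that of −0.09 in KO did not (95% interval −0.25 to 0.07, edgeR adjusted p = 0.301).

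Hsp90b1, the chaperone of integrins and toll-like receptors, had 281, 284 and 299 CPM in KO+AC libraries, against 305, 295 and 322 CPM in KO libraries. It had 265, 278 and 288 CPM in WT+AC libraries, against 358, 413 and 445 CPM in WT libraries. The KO+AC and KO libraries overlapped, while the WT libraries were above all 9 others. On the log2 scale, the difference was −0.55 (SE 0.09, edgeR adjusted p = 1.64e-06) in WT and −0.09 (95% interval −0.27 to 0.08, edgeR adjusted p = 0.306) in KO.

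Herpud1, which brings ubiquitin ligase and retrotranslocation factors together, had 34.6, 33.7 and 31.9 CPM in KO+AC libraries, against 37.5, 30.9 and 31.8 CPM in KO libraries. It had 31.1, 31.1 and 33.5 CPM in WT+AC libraries, against 31.1, 33.1 and 28.1 CPM in WT libraries. All 4 groups overlapped. Its log2 fold change was 0.00 in KO (95% interval −0.20 to 0.20, edgeR adjusted p = 0.985) and 0.05 in WT (95% interval −0.15 to 0.25, edgeR adjusted p = 0.617).

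Not overlapping between the conditions were 6 of the 8 genes in KO, beside 86.7% of all genes, and 7 of the 8 in WT, beside 86.6%. With TMM scaling, the 4 genes that differed most with apoptotic cells, Sdf2l1, Dnajb9, Xbp1 and Pdia4, were the 4 whose promoters held neither form of the ER stress response element. That order did not hold with the length and GC offset, where Herpud1, which has a match, differed more than Pdia4. Among the other pathway genes listed below, the first form was present in the promoters of Creld2, Canx, Dnajc3, Syvn1, Pdia6 and Derl3. In KO, Creld2 was called lower at −1.66 and Dnajc3 at −0.52, Syvn1 was called higher at 1.05, and Canx was not called at 0.01. Pdia6 and Derl3 were not among the genes tested there. Creld2 was also called lower in WT, at −1.42. WT+AC and WT libraries averaged 414 and 533 CPM for Canx, 64.7 and 116 for Dnajc3 and 63.2 and 31.4 for Syvn1. These values for Creld2, Dnajc3, Syvn1 and Canx are those with TMM scaling. A relation between the element and the fold change was not tested.

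The sizes depended on the scale. Scaled by library totals alone, the median log2 fold change of all genes was 0.76 in KO and 0.66 in WT, and of the 8 genes 3 were then called higher against 4 lower in KO, and 2 against 4 in WT. Fold changes with apoptotic cells also followed exonic length, with medians of 4.31 in KO and 4.51 in WT over the shortest 8th of genes, −0.65 and −0.57 over the third 8th and 0.98 and 0.74 over the longest. With an offset for length and GC content, 2 of the 8 were called higher and 4 lower in KO, and 1 higher and 5 lower in WT. Sdf2l1, Dnajb9, Xbp1 and Pdia4 were called lower in both genotypes in every alternative that was run. With the offset, their log2 fold changes were −1.69, −0.91, −0.84 and −0.29 in KO and −1.62, −0.68, −0.94 and −0.17 in WT. Calr was called higher in KO with the offset, at 0.20 (edgeR adjusted p = 0.00392), and was not called in WT, at 0.11. Herpud1 was called higher in both genotypes with the offset, at 0.90 in KO and 0.68 in WT, and with library totals, at 0.45 and 0.46. Hspa5 was called higher with library totals, at 0.36 in KO and 0.17 in WT, and Hsp90b1 was so in KO, at 0.35.

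**Figure D2:**
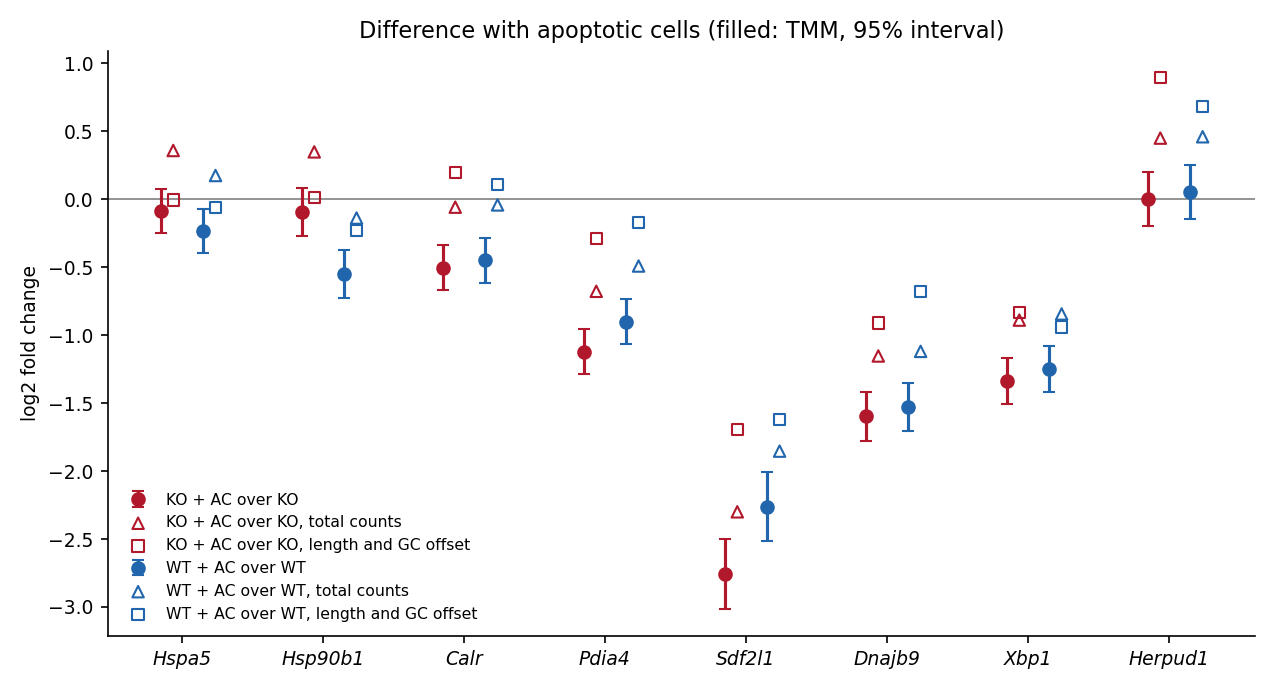
Log2 fold change with apoptotic cells (vertical axis) for each of the 8 genes, KO+AC over KO in red and WT+AC over WT in blue; filled points are the edgeR estimates with TMM scaling and 95% intervals, open triangles use library totals and open squares the length and GC offset. Sdf2l1, Dnajb9, Xbp1 and Pdia4 stay below 0 on every scale, whereas Hspa5 and Calr in both genotypes and Hsp90b1 in KO lie on either side of it, and Herpud1 lies at or above it.

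Markers of other cells moved with the condition only in part. Sums of plasma and B cell markers overlapped between the conditions in WT. Those of dendritic cell markers were lower with apoptotic cells in KO and higher in WT. By gene, however, 3 of the 4 tested were called higher and 1 lower in KO, and 4 higher in WT. Of these 7 dendritic cell markers, 2 passed the count filter among the libraries without apoptotic cells alone. Of the 22 T cell markers, 15 were tested, of which 12 were called higher and 2 lower in each genotype. Among the libraries without apoptotic cells alone, 3 of the 22 passed the count filter. Most of the 15 thus entered the test through the libraries with apoptotic cells, so their higher calls are no independent result. Over all genes, 49.6% were called higher in KO and 48.3% in WT, and 36.7% lower in each. The summed level of the T cell markers was 131 to 141 CPM in KO+AC and 138 to 154 in WT+AC libraries. It was 62.4 to 74.3 in KO and 55.4 to 56.5 in WT libraries. Without apoptotic cells, Rag1, Rag2, Lef1 and Themis were at 0 in KO and Cd3d, Cd7, Bcl11b, Rag1 and Rag2 in WT. The sum of the 12 fibroblast markers was 332 to 356 CPM in KO+AC, 485 to 530.3 in WT+AC, 1536 to 1850.5 in KO and 1006 to 1229 in WT libraries, and all 12 had counts in each group. That of the 10 plasma and B cell markers, cells rich in the proteins described here, was 406 to 450.4 CPM in KO+AC, 370.4 to 394 in WT+AC, 512 to 628 in KO and 378 to 472 in WT libraries, with Mzb1 at 0 in WT+AC, KO and WT and Pax5 at 0 in KO. Neutrophil markers summed to 12.7 to 14.6, 10.9 to 11.6, 20.2 to 26.5 and 19.8 to 21.2 CPM and dendritic cell markers to 589 to 635, 731 to 765, 721 to 814 and 577 to 615 CPM in KO+AC, WT+AC, KO and WT, with Elane at 0 in WT+AC, Ly6g in KO and WT, Camp and Retnlg in KO, Siglech in KO and WT and Flt3 in WT. The part of these cells, and of human RNA from the Jurkat cells, in the values of the 8 genes was not tested.

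Counts of each gene per 100 counts of Hspa5 in the same library need no scaling factor, and this ratio was chosen after the data were seen. Sdf2l1 stood at 4.25, 4.18 and 4.16 in KO+AC and 5.00, 4.79 and 4.44 in WT+AC libraries, against 27.8, 32.7 and 19.7 in KO and 18.4, 19.9 and 19.6 in WT libraries. Dnajb9 stood at 1.95, 1.92 and 1.79 in KO+AC and 2.14, 2.17 and 2.03 in WT+AC libraries, against 5.31, 5.47 and 5.34 in KO and 5.09, 5.17 and 5.25 in WT libraries. Both co-chaperones were thus less abundant relative to BiP in every library with apoptotic cells. Xbp1 averaged 13.0 in KO+AC, 13.2 in WT+AC, 30.9 in KO and 26.7 in WT libraries. Pdia4 averaged 6.56, 7.66, 13.5 and 12.1 in the same order of groups. Hsp90b1 was almost level with the condition in KO, at 29.4, 28.9 and 29.6 in KO+AC and 29.3, 28.1 and 30.9 in KO libraries, and lower with it in WT, at 29.8, 30.5 and 30.2 in WT+AC and 33.8, 37.1 and 41.6 in WT libraries. A ratio within a library shows unequal change of 2 genes and does not say which of them moved. Nor does it remove the trend with exonic length, which was 1.108 kb for Sdf2l1 and 4.229 kb for Hspa5.

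**Figure D3:**
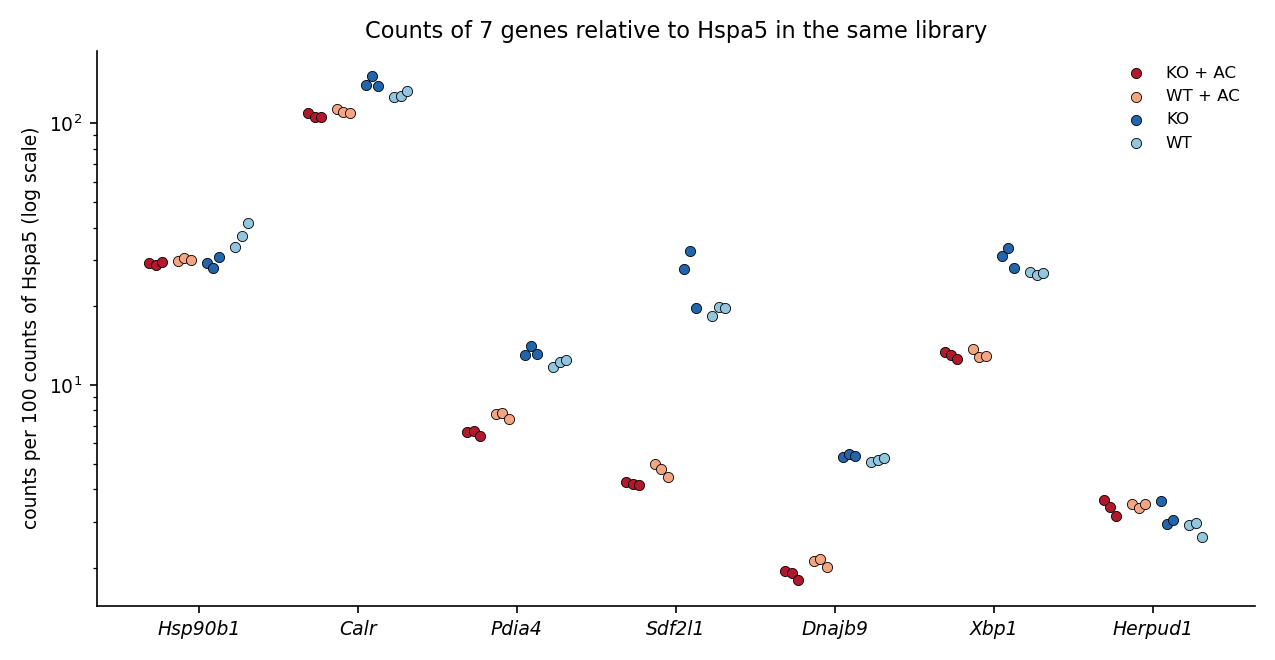
Counts of 7 genes per 100 counts of Hspa5 in the same library (vertical axis, log scale), by group; each point is 1 library of KO+AC, WT+AC, KO or WT. Sdf2l1 lies between 4.16 and 5.00 in the 6 libraries with apoptotic cells and between 18.4 and 32.7 in the 6 without them.

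Per kb of exon, Calr was the most abundant of the 8 genes in every group, at 367 ± 4.91 CPM per kb in KO+AC, 355 ± 8.57 in WT+AC, 520.2 ± 28.3 in KO and 485 ± 15.7 in WT libraries (SD, n = 3). In KO+AC it was followed by Hspa5 at 232 ± 6.37 CPM per kb, Hsp90b1 at 71.4 ± 2.45, Xbp1 at 39.3 ± 0.343, Sdf2l1 at 37.2 ± 0.612, Pdia4 at 26.9 ± 0.550, Herpud1 at 14.3 ± 0.591 and Dnajb9 at 7.26 ± 0.150. In WT+AC, Sdf2l1 stood above Xbp1 at 39.3 ± 0.928 against 37.2 ± 1.08 CPM per kb, and the order was otherwise the same. No neighbours in the order overlapped in these 2 groups. In KO, Sdf2l1 at 252 ± 62.7 CPM per kb and Hspa5 at 247 ± 1.03 overlapped behind Calr, followed by Xbp1 at 99.3 ± 9.09, Hsp90b1 at 76.2 ± 3.34, Pdia4 at 58.5 ± 2.72, Dnajb9 at 22 ± 0.429 and Herpud1 at 14.3 ± 1.55. In WT, Hspa5 at 256 ± 6.32 CPM per kb was above Sdf2l1 at 188 ± 11.8, and Hsp90b1 at 101 ± 10.8 overlapped Xbp1 at 88.7 ± 1.02, followed by Pdia4 at 54.7 ± 2.51, Dnajb9 at 21.9 ± 0.689 and Herpud1 at 13.2 ± 1.09. Sdf2l1 was thus level with or next to BiP mRNA per kb without apoptotic cells and far below it with them, and Dnajb9 changed places with Herpud1.

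Between the genotypes without apoptotic cells, Hsp90b1 alone was called among the 8, lower in KO, beside 8.24% of 12640 genes called lower, 7.94% higher and 16.2% in all. Its 3 KO libraries, with the values given above, were below the 3 WT libraries without overlap. On the scale of all 12 libraries, groups did not overlap for 5 of the 8 genes, but for Pdia4, Xbp1, Calr and Hspa5 by narrow margins. The share over all genes was 33.6%, taken on the scale of this comparison's own fit. For Hsp90b1, the log2 fold change was −0.40 (SE 0.13, 95% interval −0.66 to −0.14, edgeR adjusted p = 0.0356). The call ended without KO library 1 (log2 fold change −0.39, adjusted p = 0.0998), without KO library 2 (−0.37, 0.105), without WT library 2 (−0.38, 0.141) and without WT library 3 (−0.32, 0.219). With the length and GC offset it was −0.20 (adjusted p = 0.151). An unstranded count could also include the overlapping antisense gene 1810014B01Rik, which had 40 to 51 counts in KO and 47 to 62 in WT libraries, against 4406 to 5274 and 5981 to 7180 for Hsp90b1.

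Sdf2l1 had the other sizeable difference, with a log2 fold change of 0.42 (SE 0.15, 95% interval 0.11 to 0.73, edgeR adjusted p = 0.0541). KO library 3 lay within the WT range, so the groups overlapped, and without it the value was 0.56 (edgeR adjusted p = 0.00149). With the length and GC offset it was −0.05 (adjusted p = 0.774). Sdf2l1 has the shortest exonic length of the 8 genes, 1.108 kb, and the log2 fold changes of all genes had medians of 0.28 over the shortest and −0.23 over the longest 8th. The other 6 genes had log2 fold changes between −0.05 (Hspa5) and 0.17 (Xbp1) and were not called. Their 95% intervals ran from −0.31 to 0.21 for Hspa5, −0.16 to 0.37 for Calr, −0.14 to 0.34 for Pdia4, −0.24 to 0.25 for Dnajb9, −0.09 to 0.42 for Xbp1 and −0.15 to 0.39 for Herpud1. Fibroblast markers were called higher in KO for 8 of 11 tested, and plasma and B cell markers for 2 of 4, beside 7.94% of all genes. Their part in these values was not tested.

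With apoptotic cells, 1 of the 8 genes passed the test between genotypes. Pdia4 was called, lower in KO+AC, beside 4.75% of 16467 genes called lower, 6.58% higher and 11.3% in all, and its groups did not overlap. On the scale of all 12 libraries, groups did not overlap for 5 of the 8. For Hspa5 the margin was 955.1 CPM in KO+AC library 1 against 954.7 CPM in WT+AC library 3. The share over all genes was 26.4%, taken on the scale of this comparison's own fit. The log2 fold change was −0.15 (SE 0.04, 95% interval −0.23 to −0.06, edgeR adjusted p = 0.0121). The call ended without KO+AC library 1 (−0.13, adjusted p = 0.0918), in DESeq2 (−0.14, 0.111), with no filter on low counts (−0.14, 0.0654) and in a joint fit of all libraries (−0.13, 0.711). Sdf2l1 at −0.10 (95% interval −0.20 to −0.01) and Dnajb9 at −0.09 (−0.23 to 0.05) had the next lowest values and Hspa5 at 0.07 (0.01 to 0.14) the highest. Hsp90b1, at 0.03, had a 95% interval of −0.04 to 0.10, and Calr, Xbp1 and Herpud1 lay at 0.02, 0.05 and 0.04. Fibroblast markers were called lower in KO+AC for 7 of 10 tested and macrophage markers higher for 6 of 10, and their part was not tested.

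**Figure D4:**
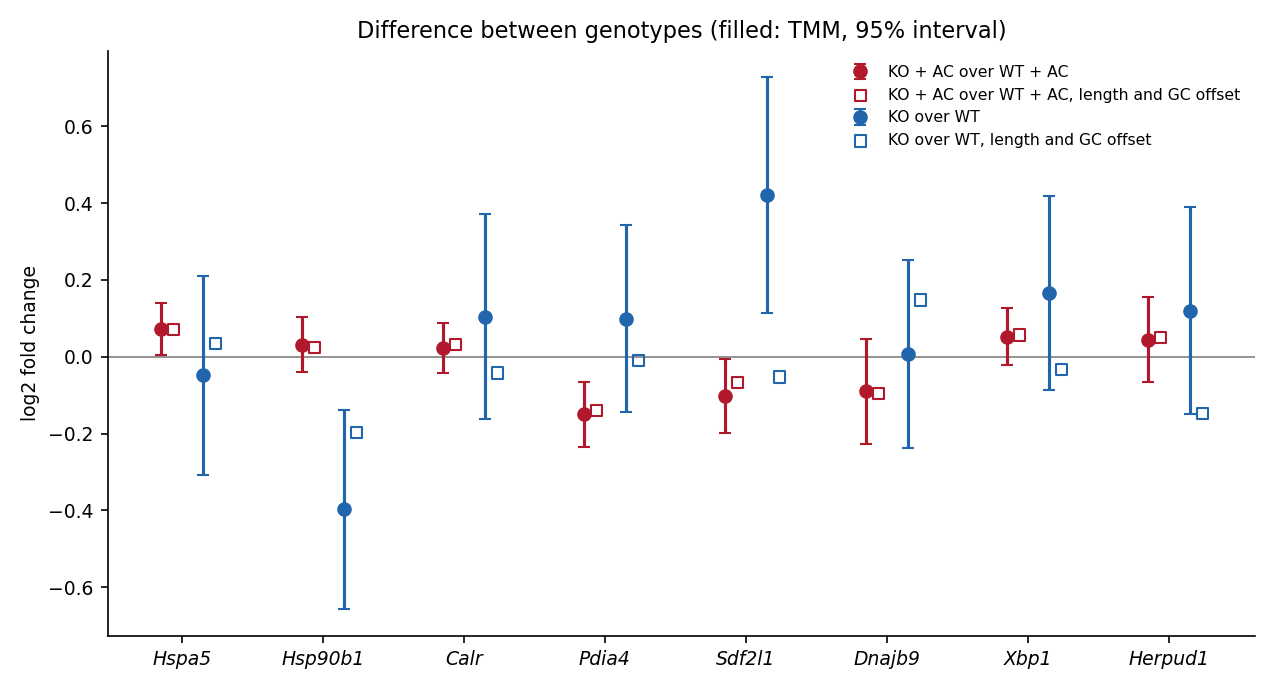
Log2 fold change between the genotypes (vertical axis) for each of the 8 genes, KO+AC over WT+AC in red and KO over WT in blue; filled points are edgeR estimates with 95% intervals and open squares the values with the length and GC offset. Hsp90b1 without and Pdia4 with apoptotic cells, the called genes, lie below 0, most other intervals include it, and the offset takes Sdf2l1 without apoptotic cells from 0.42 to −0.05.

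The difference between genotypes in the response to apoptotic cells was tested as an interaction over all 12 libraries, the same libraries as in the comparisons above. Hsp90b1 alone was called, beside 7.55% of all genes with a higher and 5.13% with a lower value in KO (12.7% in all). Its difference was 0.45 on the log2 scale (SE 0.12, 95% interval 0.20 to 0.70, edgeR adjusted p = 0.0147), being near level in KO and lower with apoptotic cells in WT. Over all alternatives it ran from 0.24 to 0.49, with adjusted p from 0.00113 to 0.0669. The call ended with the length and GC offset (0.24, adjusted p = 0.0669) and without KO library 2 (0.38), WT library 3 (0.38), KO+AC library 3 (0.42) or WT+AC library 1 (0.42). Sdf2l1 was not called at −0.50 (95% interval −0.84 to −0.15, edgeR adjusted p = 0.0531), was called without KO library 3 at −0.68 (edgeR adjusted p = 4.42e-05), and lay at −0.07 with the offset. The other 6 ran from −0.22 (Pdia4, 95% interval −0.46 to 0.01) to 0.15 (Hspa5, 95% interval −0.08 to 0.37).

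The other genes of the pathway were read from lists that do not hold the 8, and the counts called with apoptotic cells stand beside 36.7% of all genes lower in each genotype and 49.6% higher in KO and 48.3% in WT. Among ER chaperones and folding enzymes, 17 of 25 tested were called lower and 5 higher in KO+AC against KO, and 18 lower and 5 higher in WT+AC against WT, with median log2 fold changes of −0.99 and −0.85. Scaled by library totals, 15 were called lower and 8 higher in KO and 16 and 5 in WT, and with the length and GC offset 19 and 2 in KO and 20 and 2 in WT. Sdf2, the constitutive relative of Sdf2l1, averaged 25.0 ± 1.29 CPM in KO+AC against 126 ± 18.5 in KO libraries, and 25.1 ± 1.32 CPM in WT+AC against 98.5 ± 2.29 in WT libraries (SD, n = 3). Its log2 fold changes of −2.33 and −1.97 had edgeR adjusted p = 6.2e-18 and 2.72e-16, and with the offset they were −1.01 and −0.95, against −1.69 and −1.62 for Sdf2l1. Erp29, an ER protein of thioredoxin fold, fell, with log2 fold changes of −1.69 in KO and −1.57 in WT (−2.41 and −2.02 with the offset). Txndc5, a disulfide isomerase, fell at −1.51 in KO and −1.03 in WT, and Creld2, an ER stress target, with the values given above (−0.56 in WT with the offset).

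Translocation and signal peptide processing genes moved likewise, with 12 of 16 called lower and 1 higher in KO and 14 lower and 1 higher in WT, at medians of −1.11 and −0.88. With library totals 9 were lower and 4 higher in KO and 12 and 2 in WT, and with the offset 10 and 2, and 14 and 1. Sec61b, a subunit of the channel that carries new proteins into the ER, averaged 29.0 ± 1.78 CPM in KO+AC against 189.6 ± 42.6 in KO libraries, and 31.3 ± 0.940 CPM in WT+AC against 145 ± 13.2 in WT libraries. Its log2 fold changes were −2.71 and −2.21 (edgeR adjusted p = 8.34e-17 and 5.54e-15), and −1.55 and −1.46 with the offset. Of the signal peptidase subunits, Sec11a fell, at −1.53 in KO and −1.39 in WT, as did Sec11c, at −1.53 and −1.32, and Spcs2, at −1.21 and −1.31.

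For ER-associated degradation, 13 of 21 genes were called lower and 4 higher in KO, and 14 lower and 4 higher in WT, with medians of −0.27 and −0.29, which became 0.18 and 0.12 with library totals, where 6 were lower and 10 higher in KO and 6 and 8 in WT. With the offset 12 were lower and 6 higher in KO and 12 and 7 in WT. The selenoproteins of the retrotranslocation complex led this list. Selenok averaged 65.7 ± 3.05 CPM in KO+AC against 264 ± 44.2 in KO libraries, and 58.7 ± 3.51 CPM in WT+AC against 233 ± 10.1 in WT libraries. Log2 fold changes in KO and WT were −2.01 and −1.99 for Selenok, −1.79 and −1.60 for Selenos and −1.06 and −1.07 for Derl1, a derlin of the same complex. With the offset they were −0.95 and −1.03 for Selenok and −0.55 and −0.53 for Selenos. Herpud1, which works in this step, was not called with TMM scaling.

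The sensors went different ways. Ern1, which encodes IRE1, averaged 71.4 ± 3.39 CPM in KO+AC against 20.4 ± 2.07 in KO libraries, and 62.0 ± 3.36 CPM in WT+AC against 23.7 ± 1.55 in WT libraries. Its log2 fold changes of 1.81 and 1.39 were called (edgeR adjusted p = 6.1e-16 and 1.62e-13), opposite in sign to those of Xbp1, whose mRNA IRE1 splices. Eif2ak3, which encodes PERK, averaged 6.66 ± 0.546 CPM in KO+AC against 16.3 ± 1.86 in KO libraries, and 9.43 ± 0.437 CPM in WT+AC against 17.3 ± 1.42 in WT libraries, and fell, at −1.29 and −0.88 on the log2 scale. Both directions held with library totals and with the length and GC offset. Atf6 rose by 0.85 in KO and 0.53 in WT, but by 0.13 (adjusted p = 0.0583) and 0.07 (adjusted p = 0.317) with the offset. Mbtps2 was called higher in KO at 0.65 and not in WT at 0.15, and with the offset was called lower in both, at −0.20 and −0.20. Mbtps1 at 0.19 and 0.18, Atf6b at 0.13 and 0.17 and Atf4 at −0.02 and 0.06 were not called in KO or WT. With the offset, Mbtps1 was called lower at −0.55 and −0.41, and Atf6b and Atf4 higher, at 0.63 and 0.31 and at 0.78 and 0.55.

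In the PERK and ATF4 arm, 6 of 14 genes rose and 3 fell in KO, and 9 rose and 3 fell in WT, against 11 and 2 in each with library totals and 9 and 2 in KO and 11 and 2 in WT with the offset. Slc7a11, the cystine transporter and an ATF4 and NRF2 target, averaged 423 ± 25.1 CPM in KO+AC against 7.88 ± 2.96 in KO libraries, and 311 ± 21.8 CPM in WT+AC against 9.73 ± 0.705 in WT libraries. It rose by 5.73 and 5.00 on the log2 scale (edgeR adjusted p = 4.33e-21 and 3.72e-20), and the stress protein gene Nupr1 by 2.09 and 1.85, and with the offset Slc7a11 rose by 4.56 and 4.36 and Nupr1 by 2.94 and 2.53. Atf3, a transcription factor of the same arm and of immediate early responses, fell, at −1.92 and −1.79 (−0.91 and −1.05 with the offset), and averaged 251 ± 8.39 CPM in KO+AC against 949.7 ± 47.8 in KO libraries.

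The cytosolic heat shock genes, a response apart from that of the ER, were split, with 5 of 12 higher and 5 lower in KO and 4 higher and 5 lower in WT, against 7 and 2 in each with library totals and 6 and 5 in KO and 7 and 4 in WT with the offset. Hspa1b and Hspa1a, which encode near-identical inducible HSP70 proteins and can share reads, rose by 4.31 and 3.28 in KO and 3.67 and 3.13 in WT. Hspa1b averaged 30.6 ± 1.83 CPM in WT+AC against 2.40 ± 0.377 in WT libraries. Hspb1, the small heat shock protein HSP27, fell, at −3.12 and −2.82 (−2.28 and −2.45 with the offset).

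**Figure D5:**
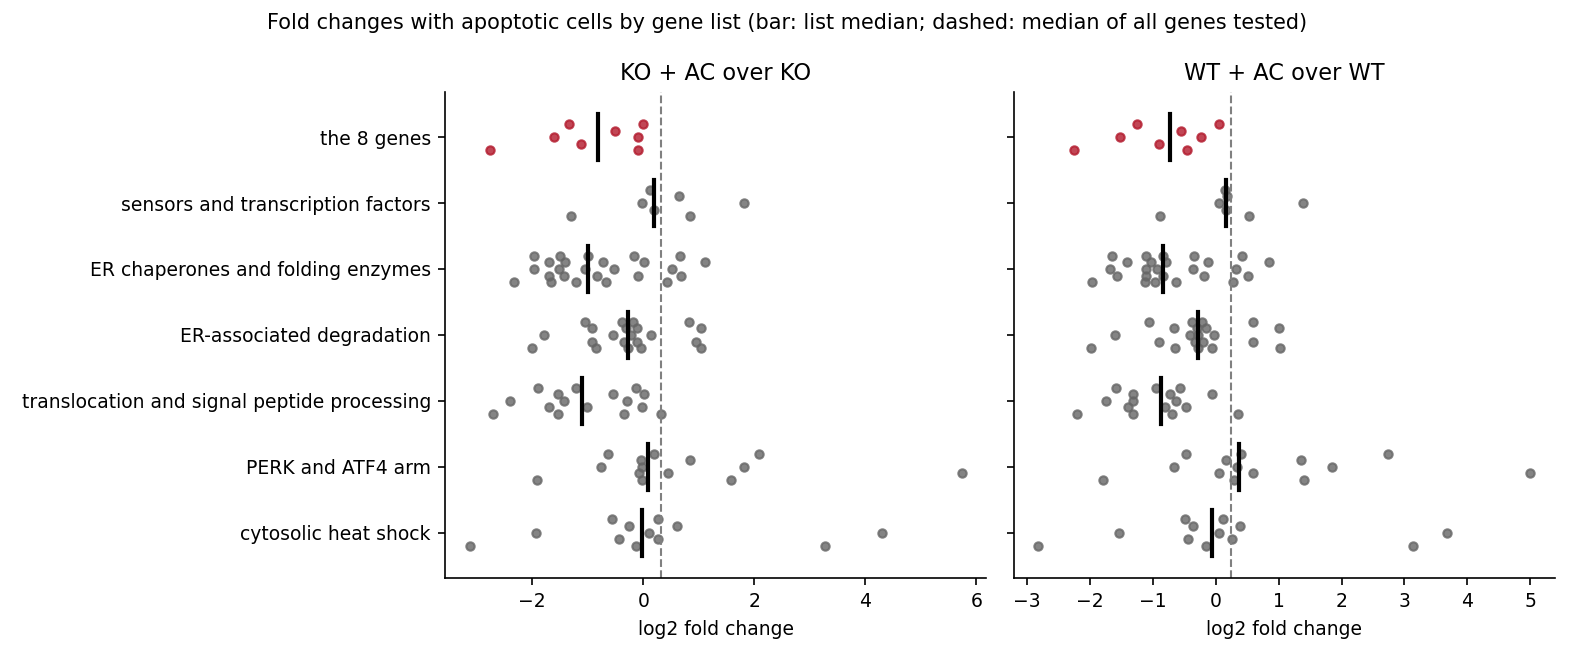
Log2 fold change with apoptotic cells (horizontal axes) of the 8 genes (top, red) and of the genes of 6 lists without them (grey), KO+AC over KO on the left and WT+AC over WT on the right; vertical bars are medians and the dashed line is the median of all genes tested. The 8 genes, the ER chaperones and the translocation genes have medians between −1.11 and −0.72 with TMM scaling, below those of the other lists.

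Between KO and WT without apoptotic cells, the counts of the same lists stand beside 16.2% of all genes called. Of the ER chaperones, 2 of 25 were called, both higher in KO, where Fkbp11, a prolyl isomerase of secretory cells, averaged 13.1 ± 2.14 CPM against 8.41 ± 0.966 in WT (log2 fold change 0.64) and Ppib, ER cyclophilin, averaged 131 ± 26.6 against 96.7 ± 9.35 CPM (0.44). Of 16 translocation genes 3 were higher and 3 lower in KO, among them Sec61g at 0.61, Ssr4 at 0.53 and Sec62 at −0.55. Edem2 at 0.37 was the 1 call of 21 in degradation, Mbtps2 at −0.42 the 1 of 7 sensors (0.06 with the offset), Hsp90aa1, the cytosolic HSP90, at −0.52 the 1 of 12 heat shock genes, and none of the 14 PERK and ATF4 genes was called by edgeR, with 2 at an unadjusted p under 0.05. With the length and GC offset, none of the chaperones, degradation genes and sensors and 1 translocation gene was called, and the values were 0.38 for Fkbp11, 0.33 for Ppib, 0.19 for Edem2, 0.34 for Ssr4 and −0.35 for Sec62. Leaving out KO libraries 1 and 2 leaves 1 KO library, so that only effect sizes are given. Sec61g was then at 0.03, Ssr4 at 0.09 and Ppib at 0.07. Fkbp11 was at 0.35, Edem2 at 0.32, Sec62 at −0.38, Hsp90aa1 at −0.34 and Mbtps2 at −0.30.

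Between KO+AC and WT+AC, 4 of 7 sensors were called, beside 11.3% of all genes. Eif2ak3 averaged 6.66 ± 0.546 CPM in KO+AC against 9.43 ± 0.437 in WT+AC libraries (log2 fold change −0.52, edgeR adjusted p = 0.000218). Ern1 at 0.18 and Atf6 at 0.12 were higher in KO+AC and Mbtps1 at −0.17 lower. In the PERK and ATF4 arm 3 of 14 were higher and 1 lower, among them Slc7a11 at 0.42, Nupr1 at 0.30 and Psat1, an enzyme of serine synthesis, at −0.30. Of 26 chaperones Txndc5 was called, lower at −0.20, of 21 degradation genes Selenok, higher at 0.14, and none of 16 translocation genes by edgeR, with 2 at an unadjusted p under 0.05. Among 12 heat shock genes, 2 were higher and 2 lower, including Hspa1b at 0.36, Hsph1 at −0.25 and Hspd1 at −0.20. In the joint fit of all 12 libraries, Eif2ak3 was the 1 gene named here that was still called (edgeR adjusted p = 0.0477), and Atf6 and Selenok were not called with library totals either.

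The 8 genes did not share 1 pattern over the 12 libraries. Measured as the root mean square difference in log2 CPM from their mean pattern, each gene centred on its own mean, Sdf2l1 was the farthest at 0.81 and Pdia4 the nearest at 0.076. Among 6216 other genes averaging 20 CPM or more, the 5 nearest to that mean pattern were Vdac3, a mitochondrial porin, at 0.041, Mmadhc, of cobalamin metabolism, at 0.047, Acad8, an acyl-CoA dehydrogenase, at 0.049, Eif4a3, of the exon junction complex, at 0.050, and Dnajb11 at 0.050. Dnajb11, the ER co-chaperone ERdj3, is the 1 ER gene among them, and its promoter held the second form of the ER stress response element. It averaged 102 ± 0.88 CPM in KO+AC, 107 ± 3.43 in WT+AC, 209.9 ± 17.1 in KO and 192 ± 3.79 in WT libraries.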

How the data were processed

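The authors deposited raw counts per gene symbol in 2 tables, without normalisation (54957 symbols without and 55367 with apoptotic cells); no column was left unused. Reads were handled with fastp and HISAT2 2.0.5 on mm10, and DESeq2 1.20.0 was used, per the submitters' processing notes. How reads were counted, on which annotation and strand, is not given in the sources used here. Groups were taken from the sample titles. In R 4.3.3, edgeR 4.0.16 (filterByExpr, TMM, robust quasi-likelihood test, two-sided, Benjamini-Hochberg over all genes tested, called under 0.05) compared KO with WT within each table. The condition in each genotype and the interaction came from 1 fit of the 12 libraries on shared symbols. Its common biological coefficient of variation was 0.0839, against 0.0294 with and 0.117 without apoptotic cells. The p-values of that fit thus rest on a spread pooled over unlike groups. Lengths, GC content and positions are from GENCODE vM21, with 53202 and 53186 symbols matched. Levels are CPM on the joint TMM scale, and motifs were searched as exact strings. No pair of libraries agreed within sampling noise (chi-square per degree of freedom 1.46 to 38.7). The fits were also run on simulated counts, with the same coefficient of variation in all libraries of a fit and no trend with length. That run therefore cannot check the tests across the 2 tables.

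The members, lists, tests and naming rule were chosen with earlier results of these data known. Named were the 8 genes, Kif13b, all sensors, up to 3 called genes with the smallest p per list and comparison, and the 5 genes nearest in pattern. Listed genes whose promoters held the ER stress response element were named too. Alternatives were DESeq2 1.42.0, edgeR with its size factors, library totals, no filter, a replicate block, a length and GC offset, voom of limma 3.58.1, other fits and filters, and leaving out each library.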

Additional observations from a re-analysis of the deposited data

Results flagged for a closer look

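For 1 of the 8 genes and 11 other pathway genes named above or chosen by the same rule, the log2 change with apoptotic cells differed between KO and WT by the interaction test of edgeR over the 12 libraries. Over all genes, 7.55% were called higher in KO and 5.13% lower, 12.7% in all. Higher and lower were 2 and 0 of 7 sensors, 2 and 2 of 25 chaperones, and 0 and 0 of 21 degradation genes. They were 3 and 2 of 16 translocation genes, 1 and 1 of 14 PERK and ATF4 genes, and 1 and 0 of 12 heat shock genes. Hsp90b1 differed by 0.45 (adjusted p = 0.0147). Higher changes in KO than in WT were also found for the site-2 protease gene Mbtps2 at 0.50 (adjusted p = 0.0154), Ern1 at 0.42 (0.0372), the calnexin gene Canx at 0.38 (0.0313), Tram1 at 0.43 (0.0153), Spcs3 at 0.46 (0.0231), Sec62 at 0.59 (0.0278), Slc7a11 at 0.73 (0.0187) and Hsp90aa1 at 0.49 (0.0271). Lower changes in KO were found for Fkbp11 at −0.92 (adjusted p = 0.00402), Txndc5 at −0.48 (0.0085) and Chac1, a glutathione-degrading enzyme, at −1.15 (0.0252). Txndc5 alone among these 12 kept an adjusted p under 0.05 in every alternative (range 0.000485 to 0.0402), and Mbtps2 was 0.00 with the length and GC offset. These differences rest on the same libraries as the genotype comparisons. Called there without apoptotic cells were Hsp90b1, Fkbp11, Mbtps2, Tram1, Spcs3, Sec62 and Hsp90aa1. Ern1, Txndc5 and Slc7a11 were called there with apoptotic cells.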

How the results depend on the processing

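Among the 8 genes, the calls lower with apoptotic cells for Sdf2l1, Dnajb9, Xbp1 and Pdia4 kept their side of the threshold in every alternative, whereas the calls for the others depended on scale and length. A value is given as reversed where its sign changed and it was called with TMM scaling, in the alternative or in both. Hspa5, Hsp90b1, Atf4 and Mbtps1 in KO, Mbtps1 and Mbtps2 in WT and the Atf6b interaction had no call with TMM scaling. Reversed with library totals were Hspa5 (0.36 in KO, 0.17 in WT), Hsp90b1 (0.35 in KO) and Atf4 (0.43 in KO). Reversed with the length and GC offset were Calr (0.20 in KO, 0.11 in WT), Atf4 (0.78 in KO), Mbtps1 (−0.55 in KO, −0.41 in WT), Mbtps2 (−0.20 in KO, −0.20 in WT, 0.0619 between KO and WT) and Atf6b (0.32 for the interaction). Atf4 was 0.16 in KO without KO libraries 1 and 2, an alternative added after seeing the data.

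Of the 8 genes, KO against WT called 2 with no filter, 2 in the joint fit and 0 with the length and GC offset. KO+AC against WT+AC called 0 in DESeq2, 2 with library totals, 0 with no filter and 0 in the joint fit. The interaction called 2 with no filter, 2 with voom and 0 with the offset. Leaving out each library gave 0 to 2 of the 8 for KO against WT, 0 to 1 for KO+AC against WT+AC, 5 to 5 for the condition in KO, 7 to 7 in WT and 0 to 2 for the interaction. Over all genes, KO against WT called 1029 with the offset, 3999 in the joint fit, 95 without KO libraries 1 and 2 and 312 to 4166 without each library, against 2045 (312 without KO 1, 698 without KO 2, 4166 without KO 3, 1001 without WT 2 and 370 without WT 3). KO+AC against WT+AC called 1123 in DESeq2, 157 in the joint fit and 1192 (without KO+AC 1) to 2142 without each library, against 1866. The interaction called 1043 without KO libraries 1 and 2 and 1129 to 4330 without each library, against 2132 (1409 without KO 2, 4330 without KO 3, 1129 without WT 3, and 1356, 1245 and 1266 without KO+AC 1, KO+AC 2 and WT+AC 2). With library totals, the higher share of calls was 21.9% between KO and WT, 31.9% between KO+AC and WT+AC, 68.8% for the condition in KO and 69.0% in WT, against 49.1, 58.0, 57.5 and 56.9%. Summed CPM of the 8 genes was 2712 in KO+AC, 2582 in WT+AC and 3438 in WT with DESeq2 size factors, and 2948, 2968, 3054 and 3219.8 in KO+AC, WT+AC, KO and WT with library totals, against 2611, 2504, 3679.5 and 3597. The causes were not tested.

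Same-numbered libraries did not deviate together (r from −0.197 to 0.0964 for KO and WT and from −0.0781 to 0.0182 for KO+AC and WT+AC). A replicate block called 2 of the 8 between KO and WT and 2 for the interaction, Sdf2l1 being the second, and changed no other count of the 8. What depth limits was not tested.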
